A study of Mus musculus with 23 samples.

Results

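H2-Q2, H2-Bl, H2-K1 and H2-M3 are 4 genes of the mouse major histocompatibility complex (MHC) class I family whose colon expression values differed between Fn14 knockout and wild-type mice, and on some of which the knockout arrays themselves fell into separate levels. They were chosen from the knockout against wild-type values of these same arrays, so those values are given here as a description, without a test. The genes are read by 7 probe sets, the groups of short probes that an Affymetrix array uses to measure a transcript, of 34958 probe sets and 18194 genes that could be named. H2-K1 has 4 probe sets and the others have 1 each.

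Colon RNA was hybridised to 23 arrays, 1 for each sample, and the labels give the strain of all of them, wild type and knockout, as BALB/c. The wild-type mice were untreated (5 arrays) or given TNBS (6 arrays), and mice lacking Fn14, the receptor for the cytokine TWEAK encoded by Tnfrsf12a, were untreated (5 arrays) or given TNBS (7 arrays). TNBS (trinitrobenzene sulfonic acid) provokes an immune colitis when placed in the rectum. It was given at 0.2% in a mixture of saline buffer and ethanol over 6 weeks. The volume per g of mouse went from 1 ul at first to 2 ul at last, and colons were taken 3 days after the last dose. The labels do not say whether untreated mice received the ethanol vehicle, nor how the knockout was made and crossed. They number the samples within a group without stating that each is a separate mouse, so a p-value here speaks of the spread among samples, whatever its source.

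Class I molecules are heavy chains that pair with beta-2 microglobulin and carry peptides to the cell surface. Peptides are cut by the proteasome and its immune subunits, moved into the endoplasmic reticulum by the Tap1 and Tap2 transporter and loaded with the help of tapasin. The classical molecules, H2-K and H2-D, are made by nearly all nucleated cells and are read by CD8 T cells and by inhibitory receptors of natural killer cells. Nonclassical molecules are less variable: H2-M3 presents peptides that begin with formylmethionine, as bacterial and mitochondrial proteins do. H2-Q2 belongs to the Qa region of nonclassical genes. RefSeq lists H2-Bl as a transcribed pseudogene of the family. Class I genes differ between inbred strains in sequence and in number, and their transcripts resemble each other closely, so a probe set may also read transcripts of related genes.

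The promoters of 3 of the genes were printed because the class I promoter is where the inducers of class I transcription act and because the windows differ in the motifs they hold. Each window holds the 250 bases before the gene's start, 5′ to 3′ on the strand of the gene, from RefSeq (GRCm38.p6): H2-K1 at chr17:34000348-34000597 (minus strand), H2-M3 at chr17:37269984-37270233 (plus strand) and H2-Q2 at chr17:35342057-35342306 (plus strand). Capitals mark 4 motifs that were searched on both strands: GATTCCCC (a kB-like site), TTTCACTT (an interferon response motif), TGACGC (a site like the cyclic AMP response element) and ATTGG with its reverse CCAAT.
H2-K1: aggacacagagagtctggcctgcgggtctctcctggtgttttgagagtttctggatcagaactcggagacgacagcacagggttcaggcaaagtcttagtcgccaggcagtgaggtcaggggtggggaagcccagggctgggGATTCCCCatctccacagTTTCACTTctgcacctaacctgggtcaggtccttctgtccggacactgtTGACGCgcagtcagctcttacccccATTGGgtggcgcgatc
H2-M3: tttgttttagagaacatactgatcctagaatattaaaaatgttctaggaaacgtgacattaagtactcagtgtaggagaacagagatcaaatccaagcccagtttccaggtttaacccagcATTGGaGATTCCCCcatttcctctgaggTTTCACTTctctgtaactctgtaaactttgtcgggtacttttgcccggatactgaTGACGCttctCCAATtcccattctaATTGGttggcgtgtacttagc
H2-Q2: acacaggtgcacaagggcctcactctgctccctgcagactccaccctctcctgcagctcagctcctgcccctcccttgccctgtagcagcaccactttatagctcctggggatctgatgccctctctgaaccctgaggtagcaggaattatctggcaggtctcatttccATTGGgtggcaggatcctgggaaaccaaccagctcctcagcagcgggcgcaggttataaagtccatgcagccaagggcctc
The H2-K1 window held the kB-like motif 108 bases, the interferon motif 90 bases, TGACGC 41 bases and ATTGG 16 bases before the start. In the H2-M3 window the same 4 stood in the same order, at 123, 101, 46 and 21 bases, with a further ATTGG at 129 and a CCAAT at 36. The H2-Q2 window held only ATTGG, 81 bases before the start. Over 32851 promoter windows, GATTCCCC was found in 0.752%, TTTCACTT in 1.36%, TGACGC in 6.12% and ATTGG or CCAAT in 33.8%. A match is a description of the letters, not a measured site. GC content was 58.4% for H2-K1, 58.4% for H2-Q2 and 41.2% for H2-M3.

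Deposited values are log2 expression from a floor of 2.17 to 15.98. Tnfrsf12a, the gene removed, stood between 5.86 and 8.25 on wild-type arrays and between 3.84 and 4.17 on knockout arrays, so every knockout array lay below every wild-type array. The mean of 9 colon epithelium markers lay between 12.71 and 13.01 on every array. The mean of 9 leukocyte markers was 7.02 to 7.47 on untreated wild-type arrays and 8.01 to 8.36 with TNBS, and 6.46 to 7.15 and 6.7 to 8.0 on the knockout arrays without and with TNBS. Other tissues that a colon sample may hold were read as well. The mean of 9 squamous epithelium markers ranged from 2.42 to 7.81 over the arrays. The mean of 8 skeletal muscle markers was 3.13 to 7.71 on wild-type and 5.43 to 8.81 on knockout arrays, and 3 of these 8 were higher in untreated knockouts: Tnni2, Tnnt3 and Acta1, calls lost under 11, 9 and 7 of 35 alternatives. Whether these cell types had a part in the class I values was not tested. In a tissue sample, fewer cells of a type and less RNA per cell cannot be told apart.

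The H2-Q2 probe set (1418734_at) stood near the floor in wild-type colon and high in most knockout colons. Untreated wild-type arrays read 2.55, 2.49, 2.59, 2.51 and 2.55. Wild-type TNBS arrays ranged from 2.17 through a median of 2.34 to 2.55. None of the 11 wild-type arrays rose above 2.59. Untreated knockout arrays 1 to 5 read 2.47, 7.13, 8.78, 8.06 and 7.39. TNBS knockout arrays ranged from 2.47 through a median of 7.61 to 8.65. Untreated knockout array 1 and TNBS knockout array 5, both at 2.47, lay inside the wild-type range, and the lowest of the other 10 knockout arrays stood at 7.03. Group means were 2.54 ± 0.04 (SD, n = 5) and 2.34 ± 0.19 (n = 6) in wild type without and with TNBS, and 6.77 ± 2.48 (n = 5) and 6.9 ± 2.03 (n = 7) in knockouts. The mean difference from wild type was 4.23 ± 1.01 (standard error) without TNBS and 4.56 ± 0.89 with it, and 5.31 and 5.3 without those 2 arrays. Because wild-type arrays stood at or near the floor, these differences depend on where the floor lies: with all values under log2 5 raised to 5, they were 2.27 and 2.26.

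H2-Bl (1450531_at) followed the same split. Untreated wild-type arrays read 2.86, 2.9, 3.0, 3.15 and 2.55, and wild-type TNBS arrays ranged from 2.59 through 2.89 to 3.08. Untreated knockout arrays 1 to 5 read 3.15, 6.66, 7.85, 7.15 and 6.04. TNBS knockout arrays ranged from 3.0 through 5.96 to 7.23. Untreated knockout array 1 (3.15) and TNBS knockout array 5 (3.0) again lay in the wild-type range of 2.55 to 3.15, while the lowest of the other 10 knockout arrays was 5.82. Group means were 2.89 ± 0.22 and 2.88 ± 0.17 (SD) in wild type without and with TNBS, and 6.17 ± 1.82 and 5.77 ± 1.31 in knockouts. The difference from wild type was 3.28 ± 0.7 without TNBS and 2.89 ± 0.62 with it. Leaving out the 2 low arrays gave 4.04 and 3.35, and raising values to log2 5 gave 1.54 and 1.05.

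A further probe set (1447260_at) that the platform table pairs with H2-Bl and 2 other symbols, and which therefore entered no fit, showed this split too. It read 2.17 to 2.31 on wild-type arrays, 2.17 and 2.33 on the low knockout arrays, and from 7.35 to 8.93 on the others. Another such set, 1422348_at, paired with H2-Q2, H2-D1 and Gm38417, did not show it. That set read 5.83 to 7.76 on wild-type arrays and 5.49 to 6.76 on knockout arrays. Untreated knockout array 1 (6.76) and TNBS knockout array 5 (6.24) were the highest of their groups there. A probe reads transcripts only where their sequence matches it, so on these arrays the amount of a transcript and its match to the probes cannot be told apart. 

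H2-M3 (1421358_at) moved the other way. Untreated wild-type arrays read 8.43, 8.33, 8.27, 8.14 and 8.34. Wild-type TNBS arrays ranged from 8.49 through 8.74 to 8.96. Untreated knockout arrays 1 to 5 read 7.99, 7.34, 5.71, 7.29 and 6.76, all below every wild-type array. TNBS knockout arrays 1 to 7 read 7.51, 5.68, 7.61, 7.46, 7.8, 7.72 and 7.11, again all below. Group means were 8.3 ± 0.11 and 8.75 ± 0.19 (SD) in wild type without and with TNBS, and 7.02 ± 0.85 and 7.27 ± 0.74 in knockouts. The difference from wild type was -1.28 ± 0.36 (2.43-fold lower) without TNBS and -1.48 ± 0.32 (2.79-fold lower) with it. H2-M3 thus did not overlap between genotypes under either treatment, as did not 4.7% of all probe sets without TNBS and 3.5% with it, which is given only as background because the gene was chosen on this contrast. Untreated knockout array 3 and TNBS knockout array 2 were lowest. Without them the differences were -0.96 and -1.21.

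The H2-K1 probe sets did not move together. H2-K1 encodes the classical K molecule. On 1425336_x_at untreated wild-type arrays read 11.69, 11.23, 11.95, 11.79 and 11.95, and untreated knockout arrays read 11.06, 12.22, 12.36, 12.39 and 12.22. TNBS knockout arrays ranged from 11.7 through 12.48 to 12.73, against 11.97 to 12.33 on wild-type TNBS arrays. Knockout arrays 1 (untreated) and 5 (TNBS) were the lowest of their groups, at 11.06 and 11.7, and the other knockout arrays passed the highest wild-type array of their treatment. The difference from wild type was 0.33 ± 0.22 and 0.27 ± 0.19, with overlap between the genotypes, and 0.57 and 0.39 without the 2 low arrays. On 1427746_x_at untreated arrays ranged from 10.91 to 11.52 in wild type and from 10.58 to 11.69 in knockouts. Its differences were 0.07 ± 0.21 and 0.07 ± 0.18, and they were 0.26 and 0.18 without untreated knockout array 1 and TNBS knockout array 5, and turned to -0.02 and -0.02 without untreated knockout array 3 and TNBS knockout array 2. The brightest set, 1451931_x_at, was slightly lower in knockouts, by -0.24 ± 0.06 (1.18-fold) and -0.18 ± 0.05. With TNBS all 7 knockout arrays (at most 12.7) lay below all 6 wild-type arrays (at least 12.75). The genotypes likewise did not overlap with TNBS in 3.5% of all probe sets, given only as background because H2-K1 was chosen on this contrast. The fourth set, 1450534_x_at, stood at the floor, between 2.17 and 2.19, on all arrays but TNBS knockout array 2, which read 2.4.

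**Figure D1:**
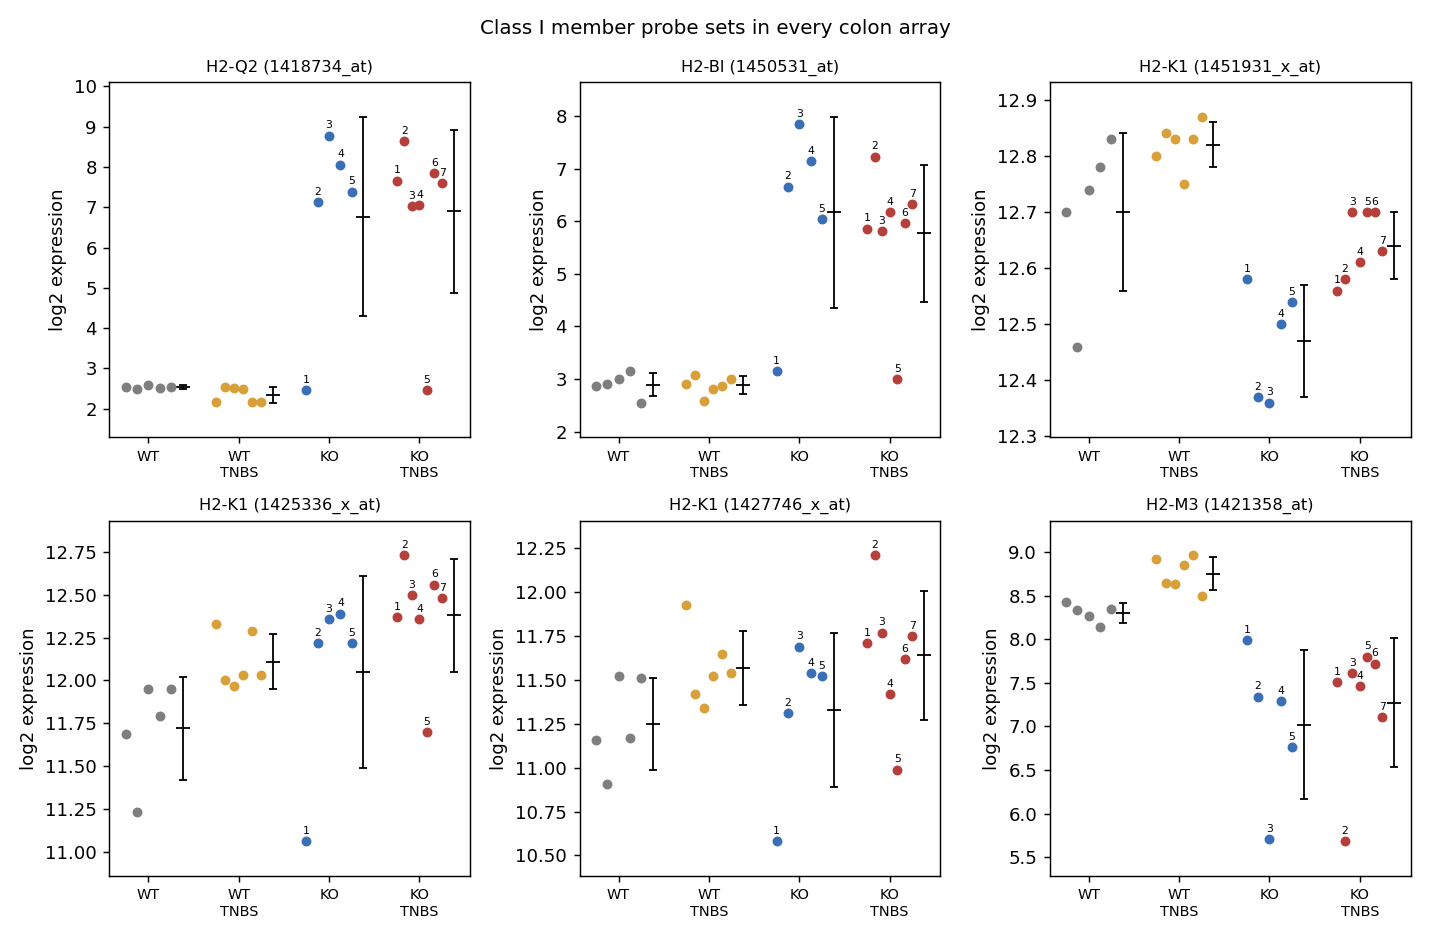
Log2 expression of 6 probe sets of H2-Q2, H2-Bl, H2-K1 and H2-M3 on each of the 23 arrays, by group; points are arrays (knockout arrays carry their replicate number), and the bar is the mean ± SD. H2-Q2 and H2-Bl are high on 10 of 12 knockout arrays, H2-M3 is low on all 12, and the 3 H2-K1 sets differ in direction. Axes do not start at 0 and differ between panels.

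Which arrays of the knockouts stand apart was then compared across all probe sets. A probe set was called two-level where the widest gap between neighbouring knockout arrays was at least 1 log2 unit and at least 50% of the range, with at least 2 arrays and arrays of both knockout groups on either side. This rule was met by 6 of 34958 probe sets (0.0172%) in the 12 knockout arrays, and by 2 (0.00572%) in the 11 wild-type arrays. Of the 7 member probe sets, H2-Q2 (gap 4.55, range 6.31, 72.2%) and H2-Bl (gap 2.67, range 4.85, 55.1%) met it. The rule is a description; the genes were proposed with such patterns in view. The other probe sets that met it were 3 for H2-D1, another classical class I gene, and 1 for Slc36a2, an amino acid transporter gene on another chromosome. All 5 class I probe sets lay between H2-K1 and H2-M3.

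H2-M3 lay just outside the rule, with a gap of 1.05 that was 45.3% of its range of 2.32. Its values on the low side, 5.68 and 5.71, came from untreated knockout array 3 and TNBS knockout array 2, and the next was 6.76. These were the same arrays on which the 3 H2-D1 probe sets fell. On H2-D1 1452544_x_at, which read 12.45 to 13.21 on wild-type arrays, untreated knockout arrays 1 to 5 read 12.56, 11.5, 2.34, 11.66 and 11.55. TNBS knockout arrays ranged from 2.99 on array 2 through a median of 12.06 to 12.83 on array 5, and the lowest besides array 2 read 11.95. The other 6 H2-D1 probe sets did not show this drop. On 1425545_x_at and 1451683_x_at neither array was the lowest of its group. On 1426324_at only untreated array 3 was (9.49, next 9.63). On 1450170_x_at and 1451784_x_at only TNBS array 2 was (5.84, next 5.89, and 12.41, next 12.54). The remaining set, 1451934_at, stood at the floor on all arrays. H2-K1 1425336_x_at had a gap of 0.64 in a range of 1.67, below the rule.

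**Figure D2:**
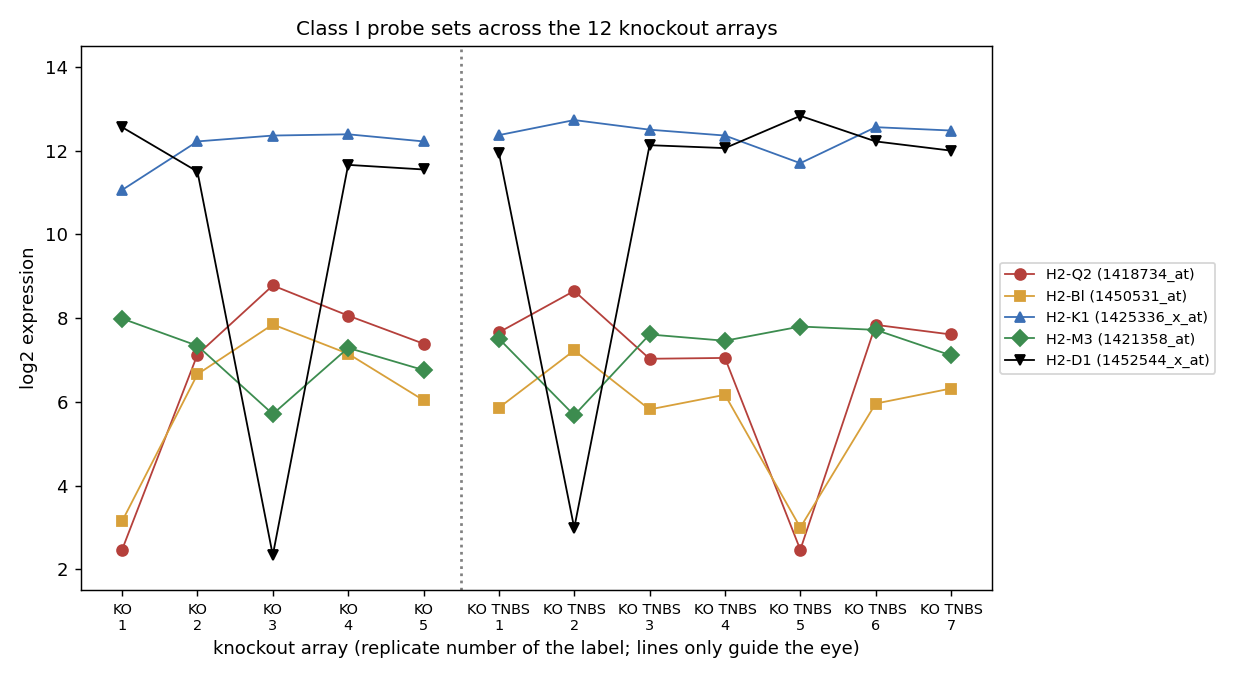
Log2 expression of 4 member probe sets and 1 H2-D1 probe set on the 12 knockout arrays, with untreated arrays left of the dotted line. H2-Q2 and H2-Bl fall on untreated array 1 and TNBS array 5, where H2-M3 is highest of its group, and H2-D1 falls on untreated array 3 and TNBS array 2, where H2-M3 is lowest.

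**Figure D3:**
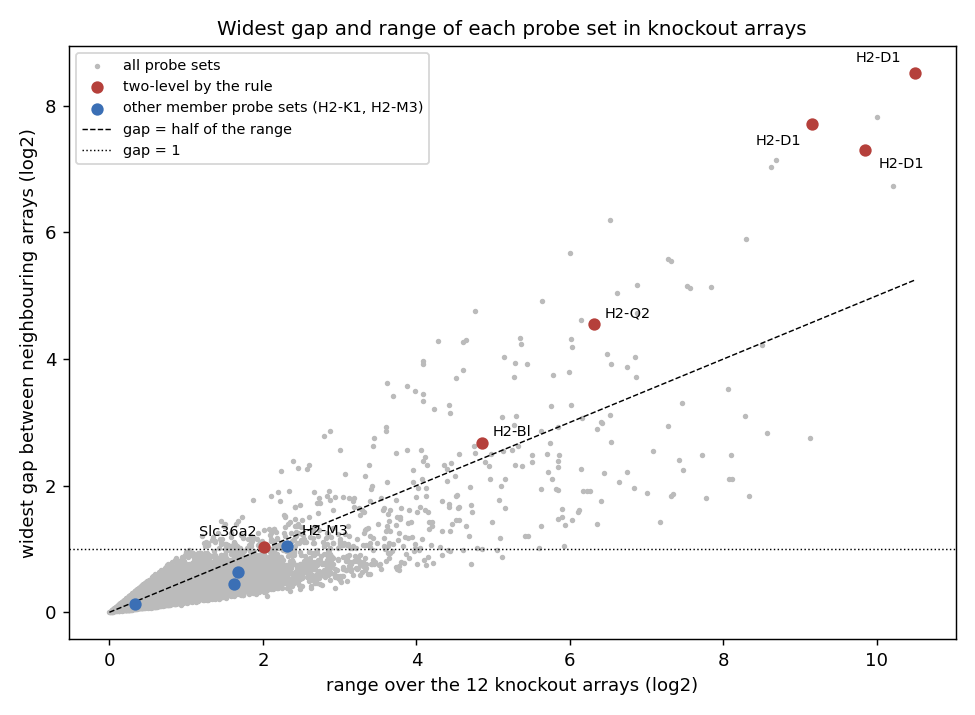
Widest gap between neighbouring knockout arrays against the range over the 12 knockout arrays, both log2, for each named probe set. The dashed line marks a gap of 50% of the range and the dotted line a gap of 1; grey points above both lines have fewer than 2 arrays, or only 1 knockout group, on a side. H2-Q2, H2-Bl and 3 H2-D1 sets lie far from the mass of probe sets, and H2-M3 lies just under the dashed line.

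Arrays at the extremes were the same for several members. Untreated knockout array 1 and TNBS knockout array 5 were each lowest of their group in 4 of the 6 member probe sets that rose above the floor (H2-Q2, H2-Bl and 2 of H2-K1), and highest in H2-M3. Across all probe sets the pair was lowest in 3.96% and highest in 2.67%. Among the 206 probe sets from H2-K1 to H2-M3, members included, it was lowest in 4.85% and highest in 8.25%. Untreated knockout array 3 and TNBS knockout array 2 were highest in H2-Q2, H2-Bl and H2-K1 1427746_x_at, and lowest in H2-M3, against 1.63% and 1.16% of all probe sets. In the same interval this pair was highest in 4.37% and lowest in 6.8%. The pairs of arrays were noted from these same values, so the shares are a description. The leukocyte marker mean was 7.05 and 6.46 on untreated knockout arrays 1 and 3, and 7.34 and 7.6 on TNBS knockout arrays 2 and 5. Untreated array 3 stood at the lowest value of its group (6.46 to 7.15), and the others were not at the ends of theirs. The skeletal muscle mean was 6.38 and 7.29 on untreated knockout arrays 1 and 3, and 8.05 and 5.43 on TNBS knockout arrays 2 and 5, the last being the lowest of its group. The squamous mean was 5.34 and 3.28, and 7.27 and 4.6, with untreated array 1 the highest of its group. Their part in the class I values was not tested.

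Deviations from group means were compared over the 12 knockout arrays, and these correlations rest partly on the 2 arrays that lie farthest out. H2-Q2 and H2-Bl deviated together (r = 0.98, rho = 0.82), and r was 0.84 over the 10 arrays left when the 2 farthest were omitted. H2-Q2 and H2-K1 1425336_x_at gave r = 0.97, and 0.78 over 10 arrays. H2-Q2 and H2-M3 ran in opposite directions (r = -0.63, rho = -0.67), with r = -0.78 over 10 arrays. Among other genes, the one most like H2-Q2 was Fam114a2, on another chromosome (r = 0.961, and 0.44 over 10 arrays). It was also among the 5 most like H2-Bl (0.964) and H2-K1 1425336_x_at (0.944). Oard1, beyond H2-M3 on the same chromosome, was among the 5 for these and for H2-K1 1427746_x_at. The 5 most like H2-K1 1451931_x_at all lay on other chromosomes. Abhd16a, a lipid hydrolase gene between H2-K1 and H2-M3, was among the 5 most like H2-Q2 (r = 0.952), H2-Bl (0.97), H2-K1 1425336_x_at (0.924) and 1427746_x_at (0.963). For H2-M3 the list held Ly6g6e (r = 0.933), H6pd (0.904), Msh5 (0.901), Tmem250-ps (0.876) and Lst1 (0.857), of which Ly6g6e, Msh5 and Lst1 lie in that interval. The Ly6g6e correlation fell to 0.55 over 10 arrays. These values share the same arrays, and no p-value is given for them.

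TNBS against untreated is not the contrast the genes were chosen on, and was tested with limma over all 34958 probe sets. The genes were proposed with the patterns among knockout arrays in view, and those patterns enter the spread of this test. None of the 7 member probe sets passed an adjusted p of 0.05 in wild type, where 13.4% of all probe sets did, or in knockouts, where 6.4% did. H2-M3 differed by 0.45 ± 0.35 in wild type (adjusted p = 0.48), and all 6 TNBS arrays lay above all 5 untreated arrays. The wild-type groups did not overlap, in either direction, in 8.34% of all probe sets. Fitted on the wild-type groups alone, the adjusted p of H2-M3 was 0.018. In knockouts, whose H2-M3 spread was wider (SD 0.85 and 0.74 against 0.11 and 0.19), the difference was 0.25 ± 0.34 (adjusted p = 0.83). H2-K1 1425336_x_at was also above every untreated array on all 6 wild-type TNBS arrays (0.39 ± 0.21, adjusted p = 0.27), and in knockouts gave 0.33 ± 0.2 (adjusted p = 0.41).

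H2-K1 1451931_x_at came nearest the threshold in knockouts, at 0.17 ± 0.05 (adjusted p = 0.052), and passed it under 6 of the alternatives, among them without untreated wild-type array 2 (adjusted p = 0.011) or 5 (0.046) or untreated knockout array 1 (0.031). In wild type it gave 0.12 ± 0.05 (adjusted p = 0.17). H2-K1 1427746_x_at gave 0.31 ± 0.2 and 0.31 ± 0.19 (adjusted p = 0.36 and 0.42). H2-Q2 gave -0.19 ± 0.97 in wild type and 0.13 ± 0.93 in knockouts, and H2-Bl -0.01 ± 0.67 and -0.4 ± 0.65, with adjusted p from 0.91 to 1.0. The fit takes its estimate of the spread from all 4 groups, the 2 low knockout arrays included. Whether TNBS acted differently by genotype was not tested for these genes.

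**Figure D4:**
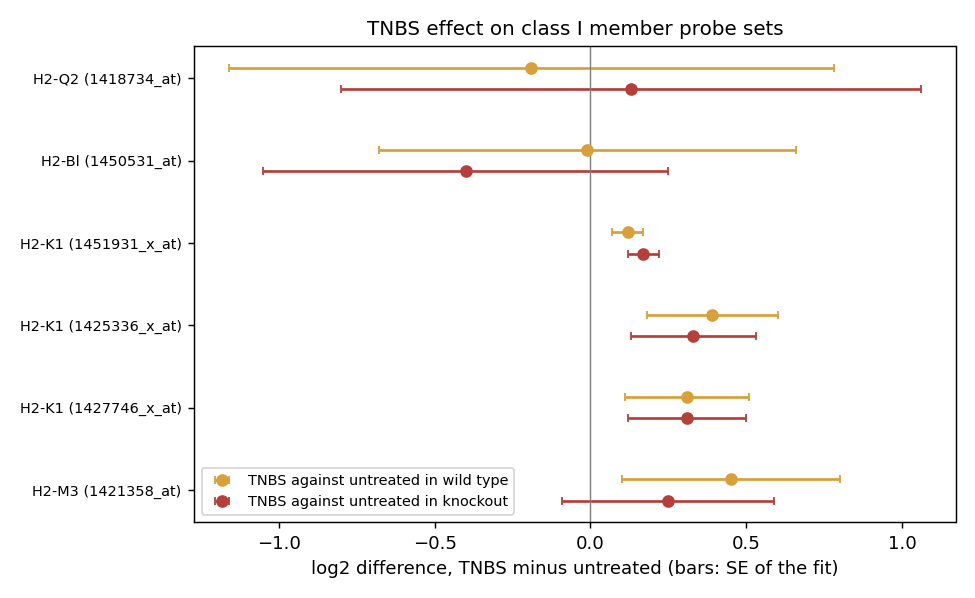
Log2 difference, TNBS minus untreated, for 6 member probe sets in wild type and in knockouts; bars are standard errors of the limma fit. The H2-K1 and H2-M3 points lie above 0 in both genotypes, and none passed an adjusted p of 0.05.

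The other genes of the class I pathway were tested as fixed lists, 1 probe set per gene, with 15.4% of all genes called in wild type (9.71% higher) and 7.53% in knockouts (3.66% higher). Of 16 other class I heavy chain genes, 4 rose with TNBS in wild type and none fell: Hfe, which regulates iron uptake (0.57 ± 0.11, adjusted p = 0.0019), Procr (0.56 ± 0.14), H2-Q10 (0.93 ± 0.25) and the Fc receptor gene Fcgrt (0.26 ± 0.08). In knockouts H2-T24 (0.92 ± 0.21, adjusted p = 0.012) and H2-D1 (0.2 ± 0.05, 0.014) rose. The median of the list was 0.01 in both, against 0 over all genes. Of 9 peptide loading genes, 3 rose in each genotype: Tap1 (0.98 ± 0.28 and 1.26 ± 0.27) and the tapasin-related Tapbpl (0.56 ± 0.12 and 0.4 ± 0.11) in both, Erap1, a peptide trimming enzyme, in wild type (0.36 ± 0.11), and beta-2 microglobulin (B2m) in knockouts (0.19 ± 0.04). The list medians were 0.09 and 0.13. Of 4 immunoproteasome genes measured, 3 rose in wild type and 4 in knockouts (medians 0.41 and 0.6). Psmb9 rose by 0.65 and 1.01, Psmb8 by 0.62 and 0.83, and Psme1 by 0.18 (adjusted p = 0.044) and 0.24. Psmb10 was called in knockouts only (0.37). Of the 35 alternatives, most of which leave out 1 array, the wild-type call was lost under 2 for H2-Q10, 4 for Tap1 and 8 for Psmb8. It was lost under 8 for Psmb9, 9 for Fcgrt, 13 for Erap1 and 17 for Psme1. The knockout call was lost under 10 for Tapbpl and 2 for Psmb10. The other calls named here were kept under all 35.

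Nlrc5, the activator of class I transcription, rose by 1.79 ± 0.34 in wild type (adjusted p = 0.0014) and 2.07 ± 0.32 in knockouts (adjusted p = 0.00099). Of the 11 class I regulators measured, 4 rose in wild type, with Ciita, the class II activator, at 1.58 ± 0.36, and 2 in knockouts, with Stat2 at 1.1 ± 0.27. The list medians were 0.23 and 0.05. Of 9 MHC class II genes, 7 rose in wild type and 4 in knockouts (medians 1.06 and 0.81). Of 11 class I receptors, 3 rose in wild type (Pirb, 2.55 ± 0.28, an inhibitory receptor of myeloid and B cells; Klrd1; Cd8a) and 2 in knockouts (Cd8a, 1.67 ± 0.27, and Pirb, 1.17 ± 0.27). Leukocyte markers rose in the same arrays, 8 of 9 in wild type and 5 of 9 in knockouts. In wild type the call was lost under 5 alternatives for Cd8a and 1 for Klrd1, and in knockouts under 2 for Stat2 and 2 for Pirb, while both Nlrc5 calls were kept under all. Among the class II calls the most often lost were H2-Ob in wild type (5) and H2-Eb1 in knockouts (8), and among the leukocyte calls Cd3e in wild type (7) and Ptprc in knockouts (8).

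Knockout against wild type was then tested for the same lists, which hold no member gene. Of the 16 other heavy chain genes, 2 were lower without TNBS, and 1 was higher and 2 lower with it, 1 of these being Procr (-0.42 ± 0.13, adjusted p = 0.05), a call lost under 26 of 35 alternatives (medians -0.01 and -0.17). Of the 9 peptide loading genes, 2 and 1 were lower (medians -0.15 and -0.16), and of the 4 immunoproteasome genes 2 and 2 (medians -0.6 and -0.42). Genes called over the whole table were 4.22% without TNBS (1.68% lower) and 10.2% with it (6.53% lower). Without TNBS, H2-T24 (-1.43 ± 0.22, adjusted p = 0.0017), H2-D1 (-0.23 ± 0.05, 0.014), B2m (-0.23 ± 0.04, 0.0047), Tap2 (-0.96 ± 0.23, 0.028), Psmb8 (-0.85 ± 0.2, 0.024) and Psmb9 (-1.13 ± 0.21, 0.0052) were lower, as was the interferon signalling gene Stat2 (-1.54 ± 0.29, 0.0065). With TNBS, Tap2, Psmb8 and Psmb9 were lower (-1.04, -0.65 and -0.77), the Psmb8 call being lost under 3 of 35 alternatives, while B2m, H2-T24, H2-D1 (-0.14, adjusted p = 0.055) and Stat2 (-0.48, adjusted p = 0.3) did not pass. The H2-D1 estimates are those of 1 probe set, 1425545_x_at. On H2-D1 1452544_x_at, TNBS knockout arrays read 2.99 to 12.83, against 13.13 to 13.21 on wild-type TNBS arrays. The genotypes did not overlap with TNBS on 1425614_x_at and 1427651_x_at either, as in 3.5% of all probe sets. Nor did they on 1425545_x_at, 1426324_at and 1451784_x_at, by narrower margins. There the highest knockout arrays read 13.31, 10.41 and 12.7, and the lowest wild-type arrays 13.33, 10.64 and 12.72. They overlapped on 1450170_x_at and 1451683_x_at. The calls without TNBS were lost under 1 of 35 alternatives, the fit of only the 2 groups, for H2-T24, H2-D1, B2m, Psmb9 and Stat2 (adjusted p from 0.055 to 0.16), under 4 for Psmb8 and under 7 for Tap2. H2-Q5, read near the floor, was lower with TNBS (-0.59 ± 0.16, 0.024), a call lost under 4 of 34 alternatives, a floor at log2 5 among them. Without TNBS it did not pass (-0.42, adjusted p = 0.23). H2-T3, a nonclassical gene, was higher with TNBS (1.15 ± 0.36, adjusted p = 0.049), a call lost under 22 of 35 alternatives. The untreated arrays gave no call for H2-T3. The genotypes overlapped on this probe set and on its other one. With TNBS, 5 of 9 class II genes and 4 of 9 leukocyte markers were lower in knockouts, as was Pirb (-1.49 ± 0.26, adjusted p = 0.0012).

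Tnfrsf12a and the MHC lie on the same chromosome, so genes were counted by their order along it. Between H2-K1 and H2-M3, 12 of 119 genes other than the members (10.1%) were called without TNBS, 3 higher and 9 lower, and 24 (20.2%) with TNBS, 4 higher and 20 lower. On other chromosomes the shares were 4.14% and 10.1% of 17198 genes. Between Tnfrsf12a and H2-K1 they were 4.17% and 9.47% of 264 genes, and before Tnfrsf12a, 12.3% and 14.2% of 106 genes. In the MHC interval, 6 genes (5.04%) were called in the same direction in both contrasts. The share was 5.66% before Tnfrsf12a, 1.14% between Tnfrsf12a and H2-K1, 1.18% beyond H2-M3 and 0.704% on other chromosomes. The 6 were the complement gene C2 (-1.56 ± 0.25 and -0.88 ± 0.22), Tap2, Psmb9, Psmb8, H2-Ab1 (-0.68 ± 0.19 and -1.0 ± 0.16, the first lost under 26 of 35 alternatives) and Ring1, a Polycomb gene that was higher (0.82 ± 0.19 and 0.72 ± 0.17). C2, Psmb9, Psmb8 and H2-Ab1 also rose with TNBS in both genotypes. Between Tnfrsf12a and H2-K1, Kctd5 was the largest of 3 (-1.27 ± 0.1, adjusted p = 3.6e-07, and -1.13 ± 0.09). The intervals differ in which kinds of genes they hold, and no test compared them.

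**Figure D5:**
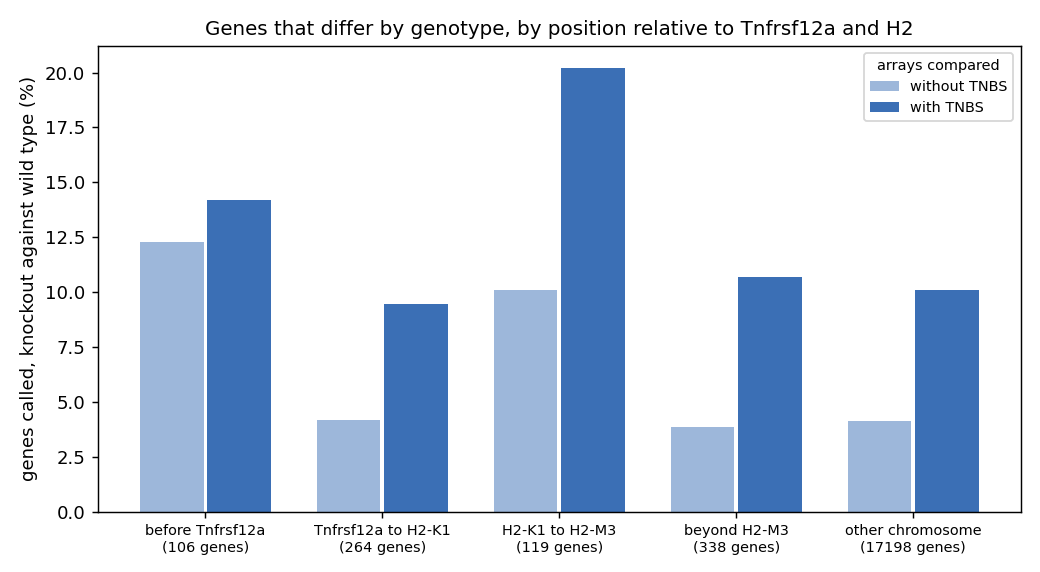
Percent of genes called different between knockout and wild type (adjusted p under 0.05) by position relative to Tnfrsf12a and the MHC, for arrays without and with TNBS; the 4 member genes are left out. Between H2-K1 and H2-M3 the shares are 10.1% and 20.2%, and on other chromosomes 4.14% and 10.1%.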

How the data were processed

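Colon RNA of 23 mouse samples was measured on Affymetrix arrays. For 45101 probe sets the authors deposited log2 values. RMA and GCRMA are named in the submitters' processing notes, with no version, and which one was used is not given in those notes. Of all values, 31.6% lay within 0.01 of the floor, and the number of arrays limits the precision. Symbols came from the platform annotation: 34958 probe sets had 1 symbol and were used, 932 had several and 9211 none. RefSeq tables of GRCm38.p6 gave gene order and promoters (of 2 H2-K1 entries, the first); 34754 probe sets matched.

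Groups came from the sample titles. Values were fitted with 1 mean per group over all 23 arrays with limma 3.58.1 (R 4.3.3) and adjusted by Benjamini-Hochberg over all 34958 probe sets at 0.05; the code was tested on simulated data. The 4 genes and every list were chosen with earlier results of these data known. Named genes were all member probe sets, up to 4 genes of a list by smallest p, the 5 most alike over knockout arrays, and up to 8 per interval called in both genotype contrasts. Alternatives were a floor, 1 probe set per gene, dim probe sets left out, centring, quantile normalization, array weights, robust fitting, a replicate block, only the 2 groups compared, and each array left out. Leaving out the 2 pairs of knockout arrays was added after seeing the data.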

Additional observations from a re-analysis of the deposited data

Results flagged for a closer look

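Of 24 sets of values (6 member probe sets in 4 groups of 5 to 7 arrays), 6 held a highest or lowest array beyond Dixon's critical value for its distance from the nearest other array. Chance flags about 5% of groups, but the genes were proposed with these knockout patterns in view, so the 6 describe the arrays and are no independent test. H2-Q2 read 2.47 on untreated knockout array 1, where the next array read 7.13, and 2.47 on TNBS knockout array 5, where the next read 7.03. H2-Bl read 3.0 on TNBS knockout array 5, where the next read 5.82. H2-K1 1425336_x_at read 11.06 on untreated knockout array 1 (next 12.22) and 11.7 on TNBS knockout array 5 (next 12.36). H2-M3 read 5.68 on TNBS knockout array 2, where the next read 7.11. Outside the fitted probe sets, 1447260_at, paired with H2-Bl and 2 other symbols, reached 8.93 on a knockout array, against at most 2.31 on wild-type arrays.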

How the results depend on the processing

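Some uncalled differences changed sign. The numbers of probe sets called changed most. TNBS in wild type called 4682 (2998 with 1 probe set per gene, 62.0% of them higher against 53.1%; 18268 centred on the arrays' medians, 13.3% higher), and 3315 to 5043 with arrays left out in turn. TNBS in knockouts called 2239 (1238 with only the 2 groups compared, 1460 without untreated knockout array 3), range 1460 to 2617. Knockout against wild type without TNBS called 1253 (232 with only the 2 groups, 831 without untreated knockout array 3 and TNBS knockout array 2), range 628 to 1505: 628 without untreated wild-type array 1, 831 without untreated knockout array 2 and 695 without untreated knockout array 4. With TNBS it called 3345 (1902 with 1 probe set per gene), range 2382 to 3653. With the replicate number as a block this last count was 2199. Same-numbered arrays did not deviate together as a set (31 pairs, median r -0.0081, from -0.384 to 0.393). Other pairs had a median r of 0.0036, from -0.487 to 0.455. These correlations cannot show whether the numbers pair samples, and the labels do not say. H2-K1 1451931_x_at in knockouts passed with 1 probe set per gene (0.17), dim probe sets left out (0.17) and array weights (0.19). H2-M3 in wild type passed in the 2-group fit (0.45), and H2-K1 1425336_x_at in wild type without untreated knockout array 1 and TNBS knockout array 5 (0.39). Two-level probe sets numbered 23 with a gap of 0.5, and 1 member remained with a floor at log2 5. Left out in turn, the TNBS difference ran in wild type and knockouts for H2-Q2 from -0.23 to -0.16 and -0.94 to 0.87, H2-Bl -0.1 to 0.05 and -1.16 to 0.06, H2-K1 1451931_x_at 0.06 to 0.15 and 0.14 to 0.2, 1425336_x_at 0.26 to 0.44 and 0.09 to 0.45, 1427746_x_at 0.23 to 0.38 and 0.12 to 0.42, and H2-M3 0.41 to 0.5 and -0.07 to 0.52. Values near the floor limit H2-Q2 and H2-Bl.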

Other observations

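Other probe sets were seen to stand apart on the same knockout arrays; they were chosen after their values were seen. H2-Ea, a class II alpha chain gene (1422891_at), read 10.95 to 11.94 on wild-type arrays and 2.28 on TNBS knockout array 2, while the other knockout arrays read 9.33 to 10.9. Untreated knockout array 3, which shared the H2-D1 drop, read 9.45 there. A probe set paired with both H2-Q5 and H2-K1 (1451593_at) read 2.97 on untreated knockout array 3 and 2.97 on TNBS knockout array 2, against 5.26 to 7.75 on the other knockout arrays and 7.08 to 9.3 on wild-type arrays. H2-T3 (1427726_at) was highest there, at 8.16 and 7.79. On the other H2-T3 probe set (1452548_x_at) these 2 arrays read 6.29 and 5.69 and were not the highest of their groups. A probe set paired with H2-K1 and H2-D1 (1424948_x_at) was lowest on untreated knockout array 1 (7.08) and TNBS knockout array 5 (7.58), the arrays on which H2-Q2 and H2-Bl were low.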
